A study of Mus musculus with 2 samples.

Results

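TEC genes are short gene models, of a biotype that still awaits experimental checking, which the GENCODE annotation places where clusters of mostly unspliced cDNA fragments were found, without settling whether an independent gene lies there. Reads over these models were examined here in 2 libraries of sorted mouse retinal microglia, as a readout of RNA that has not been spliced. The members were the genes of the deposited count table with the biotype TEC and at least 50 reads over both libraries. They numbered 273, of 460 listed TEC genes and 13549 listed genes of all kinds. They were thus chosen by their reads summed over both libraries, so that total is no finding. The rule did not ask how those reads split between the libraries. The split is still not independent of the choice, since a member read in a single library passed through that library's reads alone. Listed TEC genes under the minimum are therefore given at the end.

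Microglia, the resident macrophages of nervous tissue, had been sorted from retinas of CD11c-Cre-gfp;Rosa-TDTom mice at postnatal day 5. In these animals Cre recombinase and GFP follow the promoter of CD11c, the integrin subunit encoded by *Itgax*, and Cre permanently turns on the red reporter TdTomato. Cd11c-active cells carried both colours (GFP+TdTom+, 4041 cells), and Cd11c-lineage cells carried TdTomato without GFP (GFP-TdTom+, 5441 cells). Both sorts came from the same 8 retinas, 4 of each sex, and each gave 1 library. There was thus no replicate check, no test of the conditions could be made, and every statement below compares these 2 libraries. In such bulk material fewer cells of a type and less RNA per cell cannot be told apart.

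As background, a pre-mRNA carries introns until the spliceosome removes them, and most intron RNA is then degraded in the nucleus. Total RNA depleted of ribosomal RNA therefore holds some intron sequence beside mature messages, more so for long genes with long introns. Reads from an intron are discarded in exon counting unless another gene model, such as a TEC gene, has its exon there. A count over a TEC gene does not separate intron RNA from an independent transcript.

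*Itgax*, the gene of CD11c, had 2409 reads in Cd11c-active against 1698 in Cd11c-lineage (log2 ratio 0.69). Where a pair of values is given below, Cd11c-active comes first. The libraries held 12943998 (Cd11c-active) and 13402625 (Cd11c-lineage) reads. All 10 microglial markers were read in both, with summed levels of 22381 and 21047 CPM (counts scaled to 1000000 library reads by TMM, which is the composition correction of edgeR). Of other cell types, 8 endothelial markers summed to 646 and 73.7 CPM, with *Esam*, *Tek*, *Flt1*, *Plvap* and *Cldn5* at 0 reads in Cd11c-lineage. The 11 listed retinal neuron markers summed to 147 and 284 CPM, with *Pdc* at 0 in Cd11c-active, while *Rbpms* went the other way (325 and 126 reads). The 4 listed markers of Muller glia and astrocytes summed to 2266 and 2416 CPM, nearly all of it *Glul* (27773 and 33293 reads). The other 3 went both ways: *Rlbp1* had 94 and 0 reads, *Sox9* 43 and 18, and *Slc1a3* 73 and 642. The 4 listed border macrophage markers summed to 21.2 and 128 CPM, with *Cd163*, *Lyve1* and *F13a1* at 0 in Cd11c-active. The erythroid marker listed, *Hbb-bt*, had 0 and 31 reads. *Rn18s*, the small-subunit ribosomal RNA, took 8.57% and 2.84% of all reads. The part of these differences in the results below was not tested, and 1 member in an intron (in *Slc1a3*) had a host gene among these markers. The lists are short and do not cover every gene of these cell types, so this is no count of members from other cells.

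By structure the members matched the label of intron RNA in part. In GENCODE M21, an annotation of GRCm38, all 273 were found by their gene identifier, and 269 had 1 exon, 3 had 2 and 1 had 3. The submitters' notes name GRCm39, so no coordinates are given. The models were 275 to 8163 bases long, with a median of 2644. Of the members, 216 (79.1%, exact Clopper-Pearson 95% interval 73.8 to 83.8) lay within the bounds of another gene on the same strand without touching its exons, that is, in an intron. Among all 3219 TEC genes of that annotation the share was 50.5% (48.8 to 52.3), and among the 187 listed TEC genes under 50 reads it was 69.5% (62.4 to 76.0). The other members comprised 20 that overlapped a gene on the opposite strand only, 16 that began within 10 kb after a coding gene on the same strand, 9 that touched an exon of a gene on the same strand and 12 outside all of these. The members that met the description of intron sequence were therefore 216, and the remaining 57 did not. Whether the authors' counting used the strand is not stated, so reads of an overlapping gene on the other strand may be included.

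The 216 members in introns lay in 184 genes, 171 of them protein coding, called host genes below. No member overlapped another member. Host genes with at least 50 reads had a median genomic span of 97.8 kb, against 25.7 kb for all coding genes with at least 50 reads. Members stood at a median of 38.2% of the way along the host gene from its start. Their GC content had a median of 42.2%, against 49.7% in the longest transcripts of coding genes.

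The ends of the models also differed from those of mature transcripts. The hexamer AATAAA is the commonest signal for cleavage and polyadenylation and lies shortly before the end of most messages. It was searched on the transcript strand alone. It was present in the last 50 bases of 44 of 273 members (16.1%), against 60.2% of coding genes and 43.4% of lncRNA genes with at least 50 reads. In the middle 50 bases the shares were 3.66%, 1.61% and 2.55%. The variant ATTAAA was found in the last 50 bases of 21 members (7.69%), 1946 coding genes (17.7%) and 51 lncRNA genes. The 2 motifs differ in 1 base and a window can hold both.

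Sequences are shown for *Picalm*, the gene with the most reads among those that hold a member in an intron. It encodes a clathrin assembly protein of endocytosis and holds 4 members in its introns on chromosome 7, plus strand. The last 80 bases of each model, from the GENCODE M21 transcripts on GRCm38, are printed 5′ to 3′ with AATAAA in capitals.
Gm45220: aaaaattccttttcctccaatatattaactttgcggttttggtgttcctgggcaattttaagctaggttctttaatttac
Gm45221: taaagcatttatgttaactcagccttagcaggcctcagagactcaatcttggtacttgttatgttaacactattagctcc
Gm45222: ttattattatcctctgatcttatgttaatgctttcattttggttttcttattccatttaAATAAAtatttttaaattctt
Gm45223: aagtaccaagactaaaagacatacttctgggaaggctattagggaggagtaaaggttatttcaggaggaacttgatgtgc
Gm45222 alone of the 4 holds the hexamer, which starts 21 bases before the end of its model. The other 3 models end in sequence without it in these letters.

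Reads were few per member. The sum over both libraries ranged from 50 to 1788 with a median of 91, and 152 members had 50 to 99 reads. The median level was 0 CPM in Cd11c-active and 5.27 CPM in Cd11c-lineage. The 4 members with exactly 50 reads, Gm37678, Gm38300, Gm44797 and Gm48986, had all of them in Cd11c-lineage. Of the 5 TEC genes with 49 reads, just outside, Gm37436, Gm37581 and Gm37755 had all reads in Cd11c-lineage, and Gm37052 and Gm42571 had all in Cd11c-active.

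Most members had more reads in Cd11c-lineage. After TMM scaling 207 of 273 (75.8%, 70.3 to 80.8) had the higher level there, against 50.4% of all genes with at least 50 reads. A member was called past 2-fold when its scaled ratio reached 2 in either direction, with a count of 0 set to a floor of 3 reads (0.243 CPM in Cd11c-active, 0.214 in Cd11c-lineage). By this rule 176 members (64.5%) were higher in Cd11c-lineage and 54 (19.8%) in Cd11c-active. Among all 11901 genes with at least 50 reads the shares were 19.7% and 20.3%, and among the 11628 other than TEC they were 18.7% and 20.3%. The members' share toward Cd11c-active was near that background, and the share toward Cd11c-lineage was not. Most genes in that background have far more reads than the members, so ranges of equal reads are compared. From 50 to 99 reads 102 of 152 members (67.1%, 59.0 to 74.5) were past 2-fold toward Cd11c-lineage, against 39.5% (36.4 to 42.7) of 941 coding genes. Toward Cd11c-active the shares in that range were 26.3% (19.5 to 34.1) and 47.6% (44.4 to 50.9).

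The members together had 11704 reads in Cd11c-active against 26819 in Cd11c-lineage. Per 1000000 reads of the library total these were 904 against 2001, a log2 ratio of -1.15. After TMM scaling the log2 ratio of the sums, Cd11c-active over Cd11c-lineage, was -1.01 (95% counting interval -1.04 to -0.98), a level 2.01-fold higher in Cd11c-lineage. Counting intervals assume independent reads. The log2 ratios of genes with 800 to 1599 reads varied 83.6 times more than counting allows, so intervals called widened were computed from reads divided by this value. That spread is over genes and mixes any real differences between the sorts with noise, so it does not stand for replicates. The widened interval of the sum was -1.31 to -0.72. Without the 5 members with the most reads the log2 ratio was -1.17. The summed reads of coding genes with at least 50 reads had a log2 ratio of 0.05. No member by itself had a widened interval that left out 0, since the median member keeps 1 read after the division. The counting interval lay below 0 for 195 members (71.4%) and above 0 for 60 (22.0%). It did so for 43.1% and 42.1% of all genes with at least 50 reads, so leaving out 0 by counting alone is usual in these libraries.

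**Figure D1:**
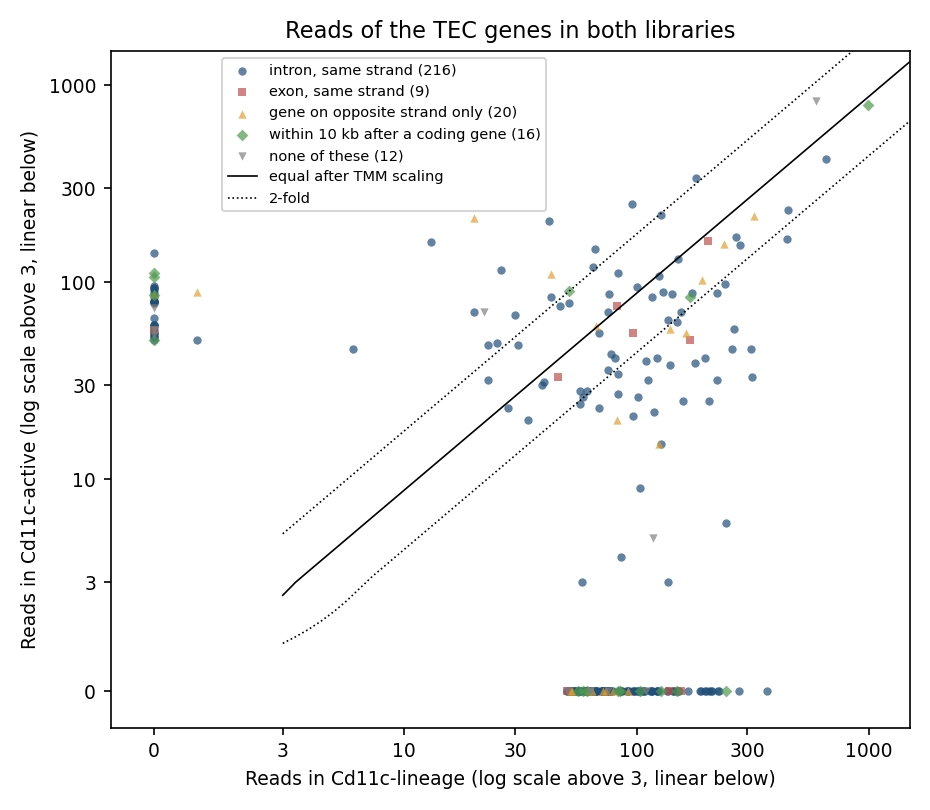
Reads of each of the 273 TEC genes in Cd11c-lineage (horizontal) and Cd11c-active (vertical), on axes that are logarithmic above 3 reads and linear below; marks give the place of the model, the solid line is equality after TMM scaling and the dotted lines are 2-fold. The 140 members along the bottom had 0 reads in Cd11c-active, against 35 along the left edge with 0 in Cd11c-lineage.

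The asymmetry was clearest in the zeros, which do not depend on scaling. Their split did differ below the minimum of 50 reads. From 20 to 49 reads, 71 of 130 TEC genes had 0 in Cd11c-active and 48 had 0 in Cd11c-lineage. Of the members 140 (51.3%, 45.2 to 57.4) had 0 reads in Cd11c-active and 35 (12.8%, 9.09 to 17.4) had 0 in Cd11c-lineage. Among all genes with at least 50 reads the shares were 8.06% and 6.96%, and among those other than TEC they were 7.04% and 6.82%. Independent reads of genes with equal levels would leave a zero in 1.28e-13% of genes as deep as the members with 50 to 99 reads, yet genes of every kind had many. The comparison at equal depth is therefore with other genes of the table and not with counting.

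Among genes with 50 to 99 reads, 98 of 152 members (64.5%, 56.3 to 72.1) had 0 reads in Cd11c-active, against 30.4% (27.5 to 33.4) of 941 coding genes. In the same range 32 members (21.1%, 14.9 to 28.4) had 0 in Cd11c-lineage, against 36.9% (33.8 to 40.0) of coding genes. From 100 to 199 reads 34 of 73 members (46.6%, 34.8 to 58.6) had 0 in Cd11c-active and 3 (4.11%, 0.856 to 11.5) had 0 in Cd11c-lineage. The coding genes of that range were nearly even, with zeros in 233 and 216 of 1291. From 200 to 399 reads 8 of 39 members (20.5%, 9.30 to 36.5) had 0 in Cd11c-active and 0 had 0 in Cd11c-lineage, against 4.73% and 5.05% of coding genes. All 9 members with at least 400 reads were read in both libraries. Zeros in Cd11c-active were thus more frequent in members than in coding genes in each of the 3 ranges, and zeros in Cd11c-lineage were less frequent, with intervals that did not overlap except for zeros in Cd11c-lineage from 200 to 399 reads. These intervals treat genes as independent. The contrast with coding genes is not particular to TEC genes: from 100 to 199 reads 51 of 128 lncRNA genes (39.8%, 31.3 to 48.9) and 14 of 34 processed pseudogenes (41.2%, 24.6 to 59.3) had 0 in Cd11c-active. In Cd11c-lineage 21 (16.4%, 10.5 to 24.0) and 3 (8.82%, 1.86 to 23.7) of them had 0. Past 2-fold toward Cd11c-lineage in that range were 69.9% (58.0 to 80.1) of members, 53.9% (44.9 to 62.8) of lncRNA genes and 73.5% (55.6 to 87.1) of processed pseudogenes. From 50 to 99 reads the zeros in Cd11c-active came to 44.8% (37.5 to 52.3) of lncRNA genes and 42.3% (30.6 to 54.6) of processed pseudogenes, below the members' 64.5%.

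**Figure D2:**
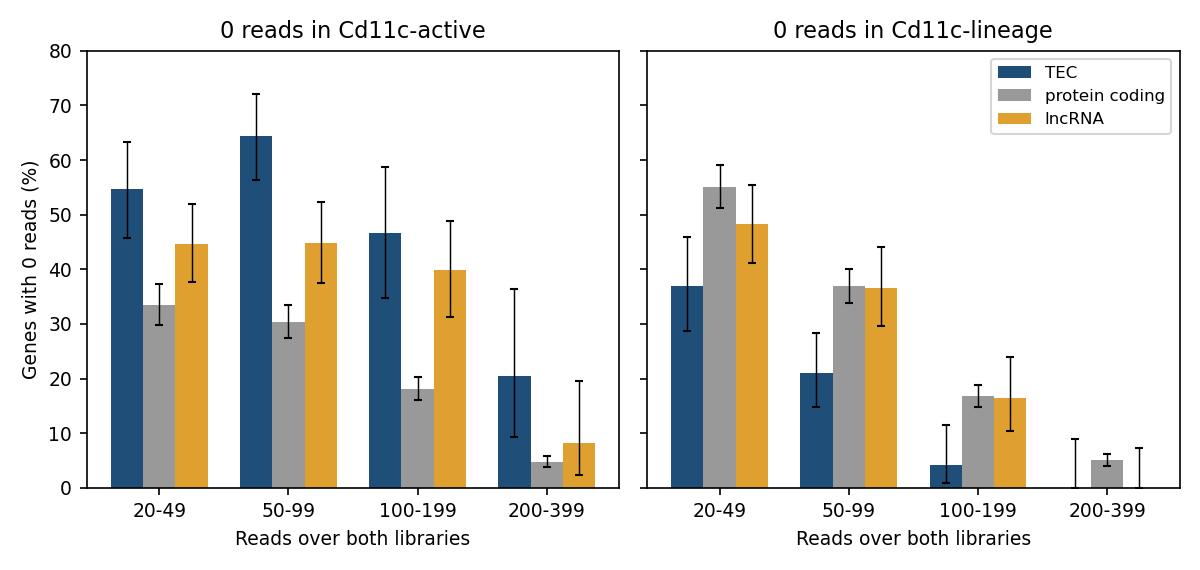
Share of genes with 0 reads in Cd11c-active (left) and in Cd11c-lineage (right), by range of reads over both libraries, for TEC, protein coding and lncRNA genes; bars are percentages, lines are exact Clopper-Pearson 95% intervals over genes, and the range of 20 to 49 reads lies outside the members. From 50 to 99 reads TEC genes stand at 64.5% on the left and 21.1% on the right, and coding genes at 30.4% and 36.9%.

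Counting both kinds of zero together, members had more of them than coding genes of the same range of reads. Within the ranges members had somewhat fewer reads, with medians of 67, 136 and 242 against 73, 144 and 285 in coding genes. The part of this in the zeros was not tested. The shares were 85.5% and 67.3% from 50 to 99 reads, 50.7% and 34.8% from 100 to 199, and 20.5% and 9.79% from 200 to 399, where the intervals (9.30 to 36.5 and 8.36 to 11.4) overlapped. LncRNA genes had 81.4%, 56.3% and 8.16%, and processed pseudogenes had 62.0%, 50% and 28.6% (2 of 7 genes in the last range). Members with reads in both libraries did not spread more widely than coding genes within these ranges. In log2 ratio their robust SD came to 1.62, 1.61 and 1.31 (22, 36 and 31 members), against 1.98, 1.87 and 1.56 in coding genes read in both. Over all depths it was 1.47 in the 98 members read in both, against 0.81 in coding genes, most of which have more reads. The median log2 ratio of these 98 members was -0.64, with 67 (68.4%) lower in Cd11c-active, 36 (36.7%) past 2-fold toward Cd11c-lineage and 19 (19.4%) toward Cd11c-active. Of the 10114 genes of all kinds with at least 50 reads and reads in both libraries, these shares were 49.9%, 13.7% and 15.7%. Summed, they had 9116 against 13597 reads (log2 ratio -0.39, widened -0.76 to -0.04). For all 273 members the median was -6.47 with 0.5 reads added and -3.93 with zeros at the floor, and both depend on how zeros are set.

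Low GC content moved with the members, so coding genes of like GC are given beside them. Among coding genes with a GC content between 38.5% and 45.8%, the middle range of the members, 34.8% had 0 reads in Cd11c-active and 31.7% had 0 in Cd11c-lineage from 50 to 99 reads. The 77 members within that GC range and depth had 64.9% and 19.5%. From 100 to 199 reads the coding genes had 18.8% and 14.4%, and the 39 members 43.6% and 7.69%. From 200 to 399 reads 58.0% of 412 such coding genes were lower in Cd11c-active, as were 17 of 18 members.

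Of the 10 members with the most reads, 2 passed 2-fold, 1 in each direction. Gm44250, which begins 366 bases after the end of *Pon3* (a paraoxonase), had 795 reads in Cd11c-active against 993 in Cd11c-lineage. Its level was 15.2 and 16.7 CPM per kb, and its log2 ratio was -0.13 (counting interval -0.27 to 0.00). *Pon3* itself had 722 and 674 reads. Gm37352, with no gene within the limits used, had 835 and 595 reads, 31.0 and 19.4 CPM per kb, and a log2 ratio of 0.68 (0.52 to 0.83). These 2 members had the most reads and neither lay in an intron.

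Of the other 8, 6 lay in introns. Gm37084 in *Mapkapk2*, which encodes a kinase acting downstream of p38, had 423 and 651 reads and a log2 ratio of -0.43 (-0.62 to -0.26). Gm44187 in *Rab7*, a GTPase of late endosomes, had 154 and 278 reads (-0.66, -0.96 to -0.38). Gm44423 in *Rab43*, another GTPase of membrane traffic, had 170 and 269 reads (-0.47, -0.76 to -0.19). Gm37472 in *Dleu2*, the noncoding host of the miR-15a and miR-16-1 cluster, had 165 and 443 reads (-1.24, -1.51 to -0.98) and was past 2-fold. Gm45223 is in *Picalm* and is described below. Gm45640 in *Chd9*, a chromatin remodeller, went the other way, with 340 and 181 reads (1.09, 0.83 to 1.36), also past 2-fold. The *Chd9* exons had 2474 and 3485 reads. The 2 members on the opposite strand of a gene were Gm45205 at *Pycard*, the inflammasome adaptor ASC, and Gm43737 at *Mtx1*, a mitochondrial import protein. Gm45205 had 217 and 321 reads (-0.38), while *Pycard* had 720 and 121. Gm43737 had 157 and 237 reads (-0.41), and *Mtx1* had 151 and 277.

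Among members with at least 200 reads, the 5 lowest ratios were all zeros in Cd11c-active. Folds given for them set the 0 to the floor of 3 reads and are no lower bounds, since no member's widened interval left out 0. Gm45222 in *Picalm* had 0 and 365 reads, 107-fold higher in Cd11c-lineage at that floor. The member 5330406M23Rik in *Lncpint*, a p53-induced noncoding RNA, had 0 and 275 reads (80.5-fold at the floor). Gm45363, 748 bases after *Chd9*, had 0 and 242 reads (70.9-fold at the floor). Gm42930 in *Ptpn11*, which encodes the phosphatase SHP2, had 0 and 227 reads (66.5-fold at the floor). Gm37702 in *Ncoa2*, a nuclear receptor coactivator, had 0 and 224 reads (65.6-fold at the floor). The host genes of these members were read in both libraries: *Ptpn11* had 1957 and 2920 reads, *Ncoa2* 955 and 1562, and *Lncpint* 69 and 218.

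At the other end the 5 highest ratios belonged to members with reads in both libraries. Gm10524, opposite *Zfp236*, had 211 reads in Cd11c-active against 20 in Cd11c-lineage, a log2 ratio of 3.55 (2.92 to 4.33). Gm37238 in the noncoding gene 6720427I07Rik had 205 and 42 reads (2.46, 1.99 to 2.99). Gm42778 in *Ttc28* had 249 and 96 (1.56, 1.22 to 1.92). Gm37570 in *Kansl1l* had 148 and 66 (1.35, 0.92 to 1.79), and Gm45640 in *Chd9* was given above. Thus Gm45640, inside *Chd9*, and Gm45363, just after it, stood at opposite ends although 1 gene neighbours both.

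By place in the genome the members in introns had the lowest summed ratio. The 216 of them had 7612 reads in Cd11c-active against 20662 in Cd11c-lineage (log2 ratio -1.25, widened -1.62 to -0.90). Of them 115 were at 0 in Cd11c-active and 25 at 0 in Cd11c-lineage. The 20 members opposite a gene summed to 1182 and 1939 reads (-0.53, widened -1.60 to 0.49), and 15 were lower in Cd11c-active. The 16 members after a coding gene summed to 1323 and 2180 (-0.53, widened -1.51 to 0.44), and 11 were lower. The 9 that touched an exon summed to 434 and 942 (-0.93, widened -2.83 to 0.69), and 7 were lower. The 12 outside all genes summed to 1153 and 1096 reads (0.26, widened -0.90 to 1.502), with 6 lower in Cd11c-active and 6 higher. Of these 12, 5 were at 0 in Cd11c-active and 4 at 0 in Cd11c-lineage. Zeros in the 2 libraries numbered 9 and 4 in the 16 after a coding gene, and 8 and 1 in the 20 opposite a gene. They numbered 3 and 1 in the 9 that touched an exon. The share at 0 in Cd11c-active was thus 53.2% in introns and 56.3% after a coding gene. The widened interval left out 0 for members in introns and included it for the 4 smaller sets. The difference between places was not tested.

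Within introns the lean was present along the whole host gene. The 70 members in the first 25% of the host's span had 4016 and 7490 reads, and 52 were lower in Cd11c-active. From 25% to 50% there were 55 members with 1272 and 4993 reads, and 45 were lower. From 50% to 75% there were 60 with 1939 and 5003 reads, and 43 were lower. In the last 25% there were 31 members with 385 and 3176 reads, and 28 were lower. The share with 0 reads in Cd11c-active was 41.4% (29.8 to 53.8), 54.5% (40.6 to 68.0), 56.7% (43.2 to 69.4) and 71.0% (52.0 to 85.8), with overlapping intervals. With 0 in Cd11c-lineage it was 11.4%, 9.09%, 16.7% and 6.45%. Members in noncoding hosts (21) and in coding hosts (195) were past 2-fold toward Cd11c-lineage in 66.7% (43.0 to 85.4) and 67.2% (60.1 to 73.7). At 0 in either library were 52.4% (29.8 to 74.3) and 66.2% (59.0 to 72.8) of them.

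The exons of the same host genes differed far less. The 108 host genes with at least 1000 reads held 123 members. The members had 5057 and 12982 reads, a log2 ratio of the sums of -1.17. The exons of these hosts had 230708 and 298203 reads, a log2 ratio of -0.18. Per 100 exon reads of the host, members thus had 2.19 reads in Cd11c-active against 4.35 in Cd11c-lineage. Summed by host, the members of 69 hosts were past 2-fold toward Cd11c-lineage and of 18 toward Cd11c-active. Of the hosts' own exon counts 3 and 0 were. Of all 167 hosts with at least 50 reads, the exon counts of 21 and 11 were. Exon reads were 0 in Cd11c-active for 7 of the 167, such as *Dlg2* (0 and 335). They were 0 in Cd11c-lineage for 3, such as *Gmds* (193 and 0). In 80 of 108 hosts (74.1%) the members' ratio was below that of the exons. Hosts have many more reads than members, so the narrow spread of their ratios is no comparison at equal depth.

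**Figure D3:**
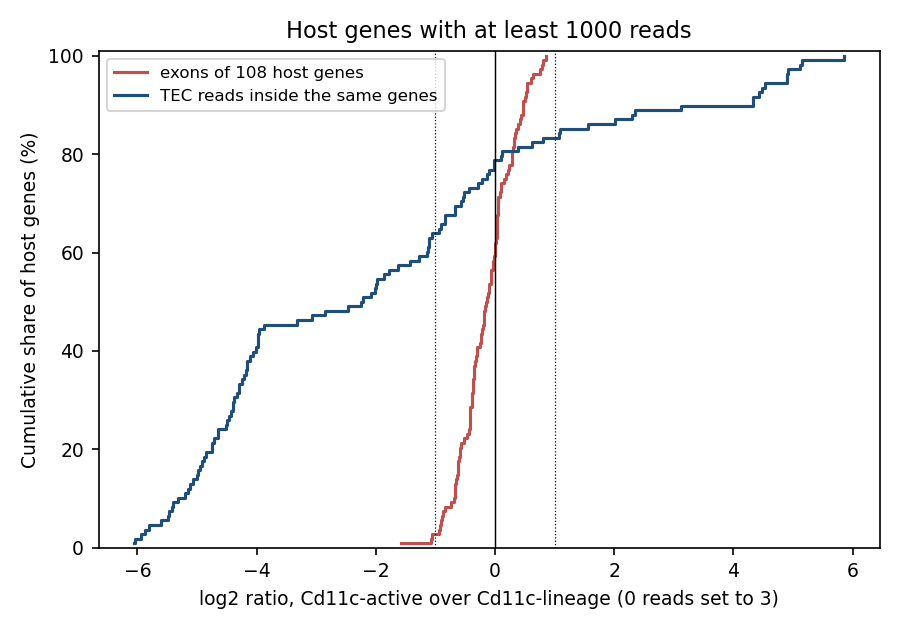
Cumulative share of the 108 host genes with at least 1000 reads, by log2 ratio of Cd11c-active over Cd11c-lineage, for their exons and for the summed TEC reads inside them, with counts of 0 set to 3 reads; dotted lines are 2-fold. The exon curve stays near 0 (median -0.14) while the TEC curve has its median at -2.24.

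With only the members read in both libraries the gap was smaller, as it had to be, since this choice drops every member at 0 in either library. These were 52 members in 49 hosts, with 4090 and 7187 reads (log2 ratio -0.63), while the exons of those hosts had -0.27. The median difference between members and exons was -0.46, against -2.14 over all 108 hosts, and in 30 of 49 hosts (61.2%) the members were lower. Per base, these members stood at a median of 5.81% of the host's exon level in Cd11c-active and 7.93% in Cd11c-lineage. Across the 108 hosts the ratios of members and exons had a Pearson r of -0.13 and a Spearman rho of -0.14, given as a description across genes that share both libraries, with many members at 0.

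Long genes as such also had lower ratios in exon counts, by much less. Coding genes with at least 1000 reads were divided by genomic span into 4 sets of equal size. Their median spans were 8.22, 23.0, 47.0 and 111 kb, and their median log2 ratios were 0.17, 0.02, -0.09 and -0.15. The share lower in Cd11c-active went from 37.9% in the shortest to 62.6% in the longest. The part of gene length in the members' ratios was not tested.

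Several hosts held more than 1 member, which gave more than 1 count within the bounds of the same gene. Of 20 such hosts with at least 50 reads, the summed members were lower in Cd11c-active in 16 and higher in 4. In *Picalm*, Gm45220 had 32 and 221 reads, Gm45221 had 46 and 257, Gm45222 had 0 and 365, and Gm45223 had 233 and 448. All 4 were lower in Cd11c-active, with the sum at 311 and 1291 reads, which put the log2 ratio at -1.87 (counting interval -2.05 to -1.69). The *Picalm* exons had 9639 and 15184 reads (log2 ratio -0.47, -0.51 to -0.43). The member with the hexamer near its end was the one with 0 reads in Cd11c-active.

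In *Camk2d*, a subunit of a calcium-dependent kinase, Gm42514 had 0 and 136 reads, Gm43010 had 0 and 85, and Gm43011 had 71 and 156. All 3 were lower in Cd11c-active (sum 71 and 377), while the exons had 1382 and 2025 reads. In *Med13l*, a Mediator subunit, the members disagreed. Gm43051 had 51 and 0 reads, Gm43274 had 0 and 123, and Gm43275 had 0 and 57. *Cers6*, a ceramide synthase, was similar, with 0 and 117 reads for Gm37159, 94 and 0 for Gm37666 and 0 and 75 for Gm38377. In *Mef2a*, a transcription factor gene, Gm44667 had 46 and 312 reads and Gm44668 had 219 and 128, so the 2 introns lay on opposite sides. Members of 1 host thus had zeros in either library, at depths where coding genes had them too.

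**Figure D4:**
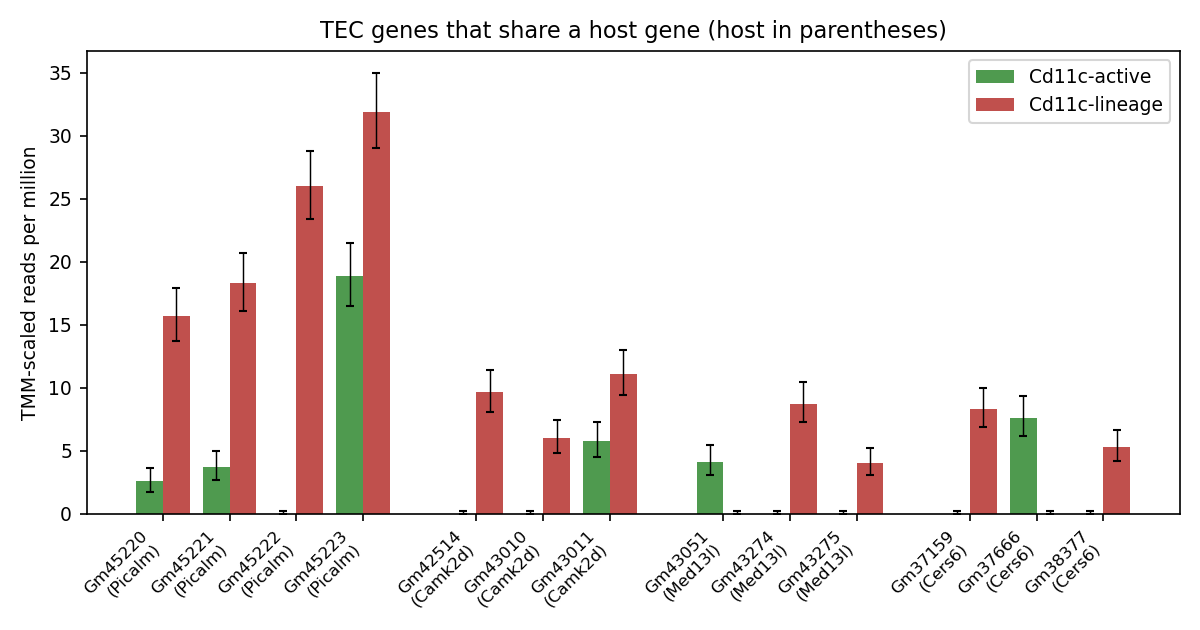
TMM-scaled counts per 1000000 reads in both libraries for TEC genes that share a host gene; bars are levels and lines are exact 95% Poisson counting intervals, with 0 drawn up to the floor of 3 reads. The 4 members in Picalm and the 3 in Camk2d are all lower in Cd11c-active, while Med13l and Cers6 each hold 1 member with reads in Cd11c-active alone.

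Among hosts with the most exon reads beyond these was *Bmp2k*, a kinase that phosphorylates the endocytic adaptor AP2. Its member Gm43145 had 0 and 166 reads (48.6-fold higher in Cd11c-lineage with the 0 at the floor of 3 reads). The *Bmp2k* exons had 8341 and 11264. The member E030022I16Rik in *Ddx6*, an RNA helicase of processing bodies, had 33 and 315 reads (log2 ratio -3.05, -3.63 to -2.55), against 6318 and 9159 in exons. Gm19721 in *Gnai2*, a G protein subunit of chemokine signalling, had 39 and 178 reads (-1.99, -2.54 to -1.50), against 10785 and 11390. Gm49759, which touches an exon of the glycolytic enzyme gene *Pkm*, had 162 and 204 reads (-0.15, -0.45 to 0.16), while *Pkm* had 32889 and 23831 (0.65). Each of these 4 members had a lower ratio than its host.

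The 6 noncoding hosts with at least 50 reads showed no common side, with the members below the exons in 3 and above them in 3. In *Mir99ahg*, the host of the miR-99a cluster, 3 members summed to 15 and 404 reads (log2 ratio -4.52), while the exons had 106 and 61 (0.98). In *Gm4258*, 5 members summed to 129 and 598 reads (-2.02) and the exons had 8 and 141 (-3.87), so the members stood above the exons. In E230029C05Rik the gap also went that way and was wide, with 209 and 36 reads in 2 members (2.71) and 96 and 438 in the exons (-2.00). In 6720427I07Rik, Gm37238 with 205 and 42 reads likewise stood above exons with 107 and 139 (-0.19). *Lncpint* had its member at 0 in Cd11c-active, as given above. *Dleu2* held 2 members with 249 and 486 reads (-0.78), and its exons had 290 and 493 (-0.58). Among coding hosts, in *Slc1a3*, a glutamate transporter of Muller glia and astrocytes, Gm37310 had 0 and 99 reads and the exons 73 and 642.

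A list of 20 noncoding RNA genes, most of them known for nuclear RNA, was also read. It holds exceptions, such as *Norad*, which is mainly cytoplasmic, and *Gas5*, which is spliced. Of the 20, 16 were listed and 14 had at least 50 reads. Of the 14, 12 were lower in Cd11c-active and 2 higher, with a median log2 ratio of -0.63. Among all genes with at least 50 reads 50.4% were lower in Cd11c-active. Past 2-fold were 5 toward Cd11c-lineage (*Xist*, *Tug1*, *Miat*, *Snhg11* and *Rian*) and 1 toward Cd11c-active (*Rpph1*, the RNA of ribonuclease P), against 19.7% and 20.3% of all genes. *Miat* had 107 and 651 reads, *Snhg11* 0 and 169, and *Rian* 5 and 136. The retinas came from both sexes. The part of sex in *Xist*, and of other cell types in this list, was not tested. *Malat1*, a nuclear speckle RNA, had 41351 and 75954 reads (log2 ratio -0.69). *Xist*, which coats the inactive X chromosome, had 3305 and 7568 reads (-1.01). The widened interval is not given for these 2, since genes with at least 10000 reads varied 234 times more than counting allows. The robust SD of the log2 ratio over those 356 genes was 0.34, and 1.40% of them had a ratio as low as that of *Malat1* or lower. *Neat1*, the scaffold of paraspeckles, had 1511 and 2386 (-0.47, widened -1.44 to 0.40). *Kcnq1ot1*, an imprinted unspliced RNA, had 411 and 792 (-0.76, widened -2.59 to 1.07). *Gas5*, a spliced snoRNA host, had 707 and 731 (0.14, widened -1.56 to 1.56), and *Rpph1* had 2057 and 686 (1.77, widened 0.64 to 3.19). *Tug1* had 1070 and 2713 reads (-1.16, widened -2.17 to -0.14). Opposite *Malat1* lies the member Gm37376, with 20 and 82 reads.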

How the data were processed

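Bulk RNA sequencing had been done on 2 sorted populations, 1 library each, from total RNA after ribosomal depletion with a stranded kit, per the labels' protocols. The authors deposited raw counts per gene, per the file headers. The submitters' processing notes name cutadapt 3.5, STAR 2.7.9a, featureCounts 1.6.3, edgeR 4.0.16 and GRCm39. The strand setting, the annotation release and the handling of duplicates are not given in the sources used here. The smallest sum listed was 6 reads. The deposited log2 fold change and log2 average CPM were not used for results. No column of unmapped samples was present (0).

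Libraries were scaled with TMM (edgeR 4.0.16, R 4.3.3), with factors of 0.954 and 1.05, which raised every log2 ratio by 0.14 against library totals. The median log2 ratio of genes with at least 50 reads was -0.01 under TMM and -0.15 under library totals. Log2 ratios of single genes used 0.5 added reads, and folds against 0 used a floor of 3 reads per library. Intervals of shares and of ratios are exact Clopper-Pearson at 95%, those called widened after division of the reads by the overdispersion, and intervals of levels in the plot of shared hosts are exact Poisson. Reads carry no molecular identifiers, so intervals and floors cover counting error only. The overdispersion of 83.6 was the squared robust SD (scaled median absolute deviation) of log2 ratios divided by their expected counting variance, from 1978 genes with 800 to 1599 reads. It takes the typical gene as unchanged. It was 59.7 from 100 to 199 reads, 82.9 from 200 to 399 and 108 from 3200 to 9999. Count models such as edgeR's quasi-likelihood fit need replicates and could not be fitted. Alternative size factors came from DESeq2 1.42.0. The other steps ran in Python 3.11.15 (scipy 1.17.1 and numpy 2.4.6, tables with pandas 2.3.3, plots with matplotlib 3.10.9), and ratios and intervals were tested on simulated data.

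Models, places and sequences came from GENCODE M21. A place took the overlapping gene with the most reads, among coding and lncRNA genes. Members named were the 10 with the most reads, the 5 highest and 5 lowest ratios from 200 reads, those nearest to the minimum, the 10 whose overlapping gene had the most reads, and a list of mostly nuclear RNA. Hosts with several members, noncoding hosts and *Slc1a3* were named after their values were seen. The members and lists were chosen with earlier results of these data known.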

Additional observations from a re-analysis of the deposited data

How the results depend on the processing

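Under every alternative run the members leaned toward Cd11c-lineage, and no value changed sign. Past 2-fold toward Cd11c-active were 110 of 403 TEC genes from 20 reads (27.3%, all genes 23.3%), 134 of 460 with no minimum (29.1%, all genes 24.5%) and 5 of 48 from 200 reads (10.4%, all genes 14.1%). Toward Cd11c-lineage they were 248 (61.5%, all genes 21.7%), 279 (60.7%, all genes 22.4%) and 23 (47.9%, all genes 12.2%). Zeros in Cd11c-active numbered 211 from 20 reads (52.4%, all genes 10.7%) and 8 from 200 reads (16.7%, all genes 1.07%), and zeros in Cd11c-lineage 83 (20.6%, all genes 10.6%) and 0 (all genes 1.23%). The log2 ratio of summed reads was -1.15 under library totals, -1.06 without the member with the most reads, -1.17 without the 5 with the most reads and -0.91 with no minimum. The median log2 ratio, -6.47 over all members, depended on how zeros were set: it was -4.54 with 2 reads added, -3.93 at the floor and -4.46 with no minimum. It was -0.92 from 200 reads and -0.64 in members read in both libraries, the latter chosen after seeing the data. The robust SD was 1.47 in members read in both libraries, 3.07 with all members and 0.92 from 200 reads. The median difference from the overlapping gene, -3.46 over 206 members, was -2.54 with 2 reads added and -0.80 from 200 reads, with 27 of 39 below that gene instead of 142 of 206. With only members read in both libraries, also chosen after seeing the data, hosts with members below their exons numbered 30 of 49 instead of 80 of 108, and the median difference was -0.46 instead of -2.14. Other scalings and the remaining settings kept counts within 1.5 times, and all 81 alternatives of named members stayed within the counting interval, which has no lower bound for members at 0 in Cd11c-active. No paired analysis was possible because each group has 1 library, and leaving out a replicate is likewise not possible. Depth limits single members: at a median of 91 reads, none had a widened interval that left out 0. Without replicates, single members could not be tested against equal expression.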

Other observations

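LncRNA genes and processed pseudogenes, the other biotypes with few reads per gene, leaned the same way in these libraries. Of 392 lncRNA genes with at least 50 reads, 188 were past 2-fold toward Cd11c-lineage and 120 toward Cd11c-active, while zeros numbered 137 in Cd11c-active against 88 in Cd11c-lineage. Their summed reads had a log2 ratio of -0.56. Without *Malat1* and *Xist* it was -0.33 (widened -0.52 to -0.15). Of 115 processed pseudogenes, whose reads can be shared with the parent gene, 66 were past 2-fold toward Cd11c-lineage and 33 toward Cd11c-active, with 46 and 17 zeros. Coding genes had 1866 and 2175 past 2-fold, of 11009.

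Below the minimum of 50 reads the lean of TEC genes did not exceed the widened interval. The 187 listed TEC genes under 50 reads summed to 2220 and 3006 reads, a log2 ratio of -0.25 (widened -1.005 to 0.53). From 20 to 49 reads 71 of 130 were at 0 in Cd11c-active and 48 in Cd11c-lineage. From 6 to 19 reads these were 32 and 24 of 57. Coding genes had more zeros in Cd11c-lineage there, with 213 and 350 of 635 from 20 to 49 reads, and 110 and 155 of 278 from 6 to 19.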
